A study of Mus musculus with 23 samples.

Results

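The comparison described here is that of Nme1/Nme2 genotype within keratinocyte-rich primary melanomas of mice, 4 HPN against 4 HP libraries. The 8 libraries were chosen by their measured values: a primary entered when the mean level of a fixed set of 17 keratinocyte genes was above 5 on the log2 CPM scale (CPM is the count of a gene scaled to 1e6 counts in its library). They are 8 of the 14 primaries, and 8 of the 23 libraries of the series. HP primaries 1, 3, 4 and 6 carry Nme1wt / Nme2wt, and HPN primaries 1, 3, 4 and 6 carry Nme1+/- / Nme2+/-, that is, 1 copy of each gene mutated. All are tumours of a mouse strain in which melanoma is induced by ultraviolet light. The labels do not spell out HP, and give no age, sex, strain background or description of the mutated allele. They do not say whether each primary came from its own animal, so the p-values measure only the spread between these libraries. The remaining 6 primaries (HP 5, 7 and 9, HPN 2, 5 and 7) are keratinocyte-poor and serve as the second, separate set of libraries.

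Nme1 and Nme2 encode nucleoside diphosphate kinases, which move phosphate groups between nucleoside triphosphates and diphosphates and so keep the nucleotide pools in balance. Nme1 was described as a suppressor of metastasis in melanoma. A cutaneous melanoma is a mixed tissue: pigment cells that express the melanin-making enzymes grow among keratinocytes, fibroblasts, vessels, muscle and immune cells, and the RNA of a tumour sample is the sum of all of them. In such bulk samples, fewer cells of a type and less RNA per cell cannot be told apart.

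Counts assigned to genes ran (in units of 1e6) from 25.2 to 89.5 in the HP libraries and from 20.4 to 38.3 in the HPN libraries. HP primary 3 stood apart, with 11.7% of its counts in genes for structural RNA against 2.26 to 4.54% in the other 7. HP primaries 3 and 6 were also the only libraries of the 8 in which the summary entry for reads of low alignment quality was above 0. By Xist and Y-linked genes, HP primaries 1, 4 and 6 and HPN primaries 1 and 3 looked male, and HP primary 3 and HPN primaries 4 and 6 female.

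The threshold left a wide gap: HPN primary 6 was just inside, at a mean log2 CPM of 5.57, and HPN primary 2 just outside, at 1.69. Inside the chosen set the keratinocyte level was not even between the genotypes. The mean log2 CPM of the keratinocyte genes was 8.75, 8.09, 7.92 and 9.69 in HP primaries 1, 3, 4 and 6, and 8.73, 6.58, 7.30 and 5.57 in HPN primaries 1, 3, 4 and 6. HPN primaries 3, 4 and 6 lay below every HP library, and HPN primary 1 lay among the HP libraries. Pigmentation genes, which mark the melanocytic cells, had a mean log2 CPM of 8.11, 9.21, 8.13 and 7.55 in the HP libraries and 7.21, 8.79, 8.99 and 9.17 in the HPN libraries. All 8 libraries therefore carried the melanocytic program, and HPN primary 1 was the lowest of them.

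**Figure D1:**
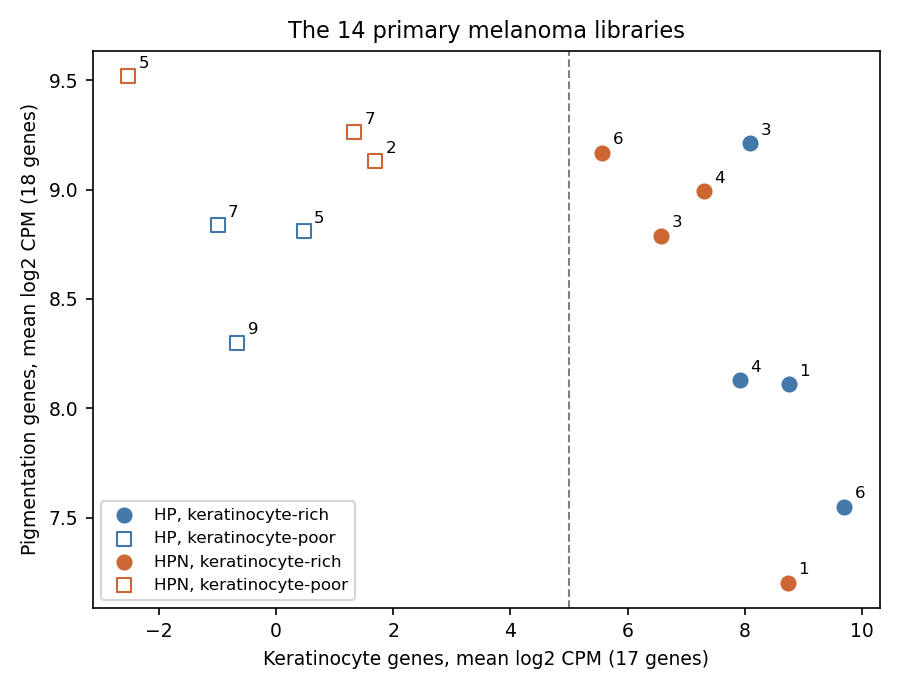
Mean log2 CPM of 18 pigmentation genes (y axis) against that of 17 keratinocyte genes (x axis) in the 14 primaries, 1 point per library with its number from the title; the dashed line is the threshold of 5. The 8 filled circles to its right are the libraries compared here, and HPN primaries 3, 4 and 6 sit to the left of all 4 HP circles.

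The targeted genes were examined first, because they check the genotype labels. Nme1 was measured at 11.1, 13.4, 7.80 and 12.7 CPM in HP primaries 1, 3, 4 and 6 and at 5.49, 12.9, 8.63 and 10.8 CPM in HPN primaries 1, 3, 4 and 6. The groups overlapped, and the difference of -0.25 on the log2 scale (SE 0.30) did not pass the test (edgeR quasi-likelihood, adjusted p = 0.824). The two-sided exact permutation test, run on log2(CPM + 0.5), gave p = 0.429. Nme2 was measured at 0.407, 0.622, 0.318 and 0.341 CPM in the HP libraries and at 0.0722, 0.228, 0.382 and 0.103 CPM in the HPN libraries. HPN primaries 1, 3 and 6 lay below every HP library and HPN primary 4 lay among them. The Nme2 difference was -1.10 on the log2 scale (SE 0.55), with an edgeR adjusted p of 0.621. Its exact permutation p was 0.0857 (0.257 adjusted over Nme1, Nme2 and their sum), and for the sum p was 0.4, where 0.0286 is the smallest p that 4 against 4 libraries allow. The Nme1 difference was 0.02 without HP primaries 3 and 6 and -0.61 with the keratinocyte mean as a covariate. In the keratinocyte-poor primaries, scaled over all 14 libraries, Nme1 was at 27.6, 23.6 and 17.8 CPM in HP 5, 7 and 9 and at 11.2, 11.03 and 12.5 CPM in HPN 2, 5 and 7. Those groups did not overlap, and the log2 difference was -1.03 (SE 0.30; edgeR unadjusted p = 0.0045, with 0 genes passing adjustment in that comparison). The 2 Nme1 differences were not called different from each other (interaction 0.74, SE 0.39; edgeR adjusted p = 0.553). In the GENCODE vM21 annotation, 48.9% of the exonic bases of Nme2 and 12.5% of those of Nme1 are shared, on the same strand, with the read-through gene Gm20390. Reads there may be counted to neither gene, so the low Nme2 counts are uncertain. Nme7, a family member that sits at the centrosome and cilium, was the 1 gene of the 6 tested whose groups did not overlap (over all genes, 1.9% did not overlap with HPN higher), at 8.91 to 9.57 CPM in HP and 9.72 to 14.3 CPM in HPN libraries (log2 difference 0.38, edgeR adjusted p = 0.607).

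**Figure D2:**
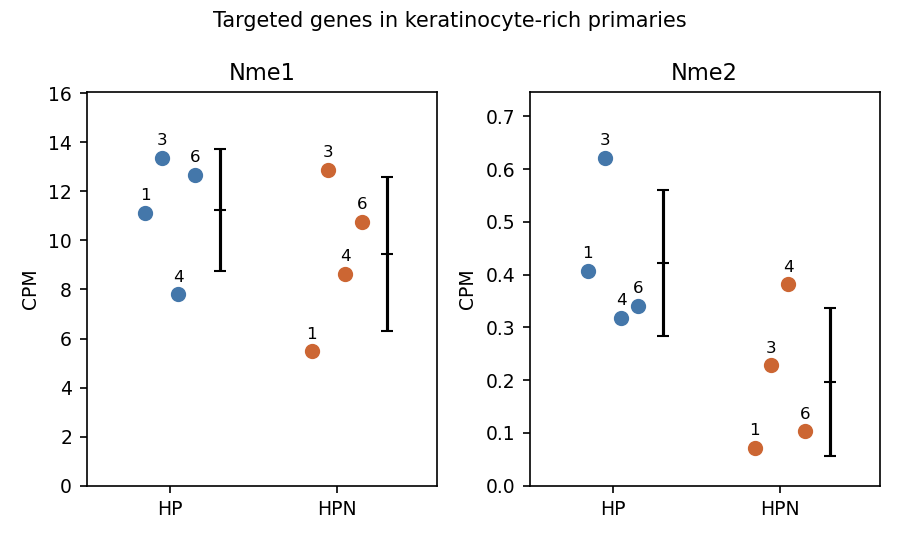
CPM of Nme1 (left) and Nme2 (right) in the 4 HP and 4 HPN keratinocyte-rich primaries; each point is a library with its title number, and the bar beside each group is the mean ± SD (n = 4). The groups overlap for both genes, and Nme2 lies below 0.7 CPM throughout.

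Across the transcriptome, 0 of 17329 genes passed an adjusted p of 0.05 in the edgeR fit of the 4 HPN against the 4 HP libraries, which is 0% of the genes tested. At an unadjusted p under 0.05, 674 genes were higher in HPN (3.89%) and 780 lower (4.5%). DESeq2 on the same counts called 196 genes, 86 higher and 110 lower, and limma voom called 1. All 4 HPN libraries were above all 4 HP libraries for 330 genes (1.9%) and below them for 336 genes (1.94%). With libraries scaled to their total count in place of TMM, these were 433 and 124 genes, and the median difference over all genes moved by 0.09. On simulated counts of the same size the edgeR fit found 11% of genes changed by a log2 of 1 and 77% of those changed by 2. A difference of 2-fold was thus mostly not detectable by that fit with 4 against 4 libraries. Leaving out HPN primary 1 raised the number of genes at an unadjusted p under 0.05 from 1454 to 3445 (leaving out HPN primary 3 lowered it to 891), and without HPN primary 1 adjustment was passed by 3 genes: Tubb3, Pcbp4 and Psd4 (the other 2 are named only for this count).

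The 10 genes with the smallest p in the higher direction are described next, none of which passed adjustment in the main edgeR fit. Their order of p is not evidence of a group effect, since they were picked from all genes tested. Tubb3, the neuronal class III beta-tubulin, was at 41.2, 31.7, 34.4 and 43.6 CPM in HP primaries 1, 3, 4 and 6 and at 99.4, 153, 169 and 143 CPM in HPN primaries 1, 3, 4 and 6. Every HPN library was above every HP library, with a gap between 43.6 and 99.4 CPM. The log2 difference was 1.90 (SE 0.20; edgeR adjusted p = 0.109). With limma voom the adjusted p was 0.0250, in the fit of all 14 primaries 0.0497, and with DESeq2 2.3e-11. Agrn, which encodes the proteoglycan agrin that organises the neuromuscular synapse, was at 288, 237, 195 and 258 CPM in HP and at 526, 559, 601 and 545 CPM in HPN libraries (log2 difference 1.19, SE 0.17). Gdnf, a neurotrophic factor that signals through Ret, was at 10.6, 5.41, 5.05 and 4.25 CPM in HP and at 43.9, 21.6, 46.5 and 31.3 CPM in HPN libraries (log2 difference 2.51, SE 0.36). The lowest HPN library was thus at least 2-fold above the highest HP library for both Tubb3 and Gdnf.

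The other 7 were also apart in all 8 libraries. Rgs16, which shortens signalling by G protein-coupled receptors, ranged from 2.94 to 6.51 CPM in HP and from 13.7 to 21.0 CPM in HPN libraries (log2 difference 1.89). Gdf11, a ligand of the TGF-beta superfamily, ranged from 5.21 to 7.66 and from 12.8 to 18.7 CPM (1.32). Rftn2, a lipid raft protein, ranged from 10.3 to 16.0 and from 27.8 to 38.5 CPM (1.30), and Glis3, a zinc finger transcription factor, from 16.0 to 24.0 and from 40.4 to 58.9 CPM (1.24). Sntb1, the syntrophin that binds dystrophin, varied least within HP, at 23.1 to 24.8 CPM, and was at 37.3 to 66.8 CPM in HPN (1.13). Utp14b, a factor of ribosomal RNA processing that shares exonic bases with Acsl3, was at 19.3 to 25.3 and at 35.0 to 46.8 CPM (1.01). Samd4, an RNA-binding repressor of translation, was at 35.4 to 41.8 and at 58.0 to 71.7 CPM (0.77). The 9 genes after Tubb3 shared an edgeR adjusted p of 0.334.

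**Figure D3:**
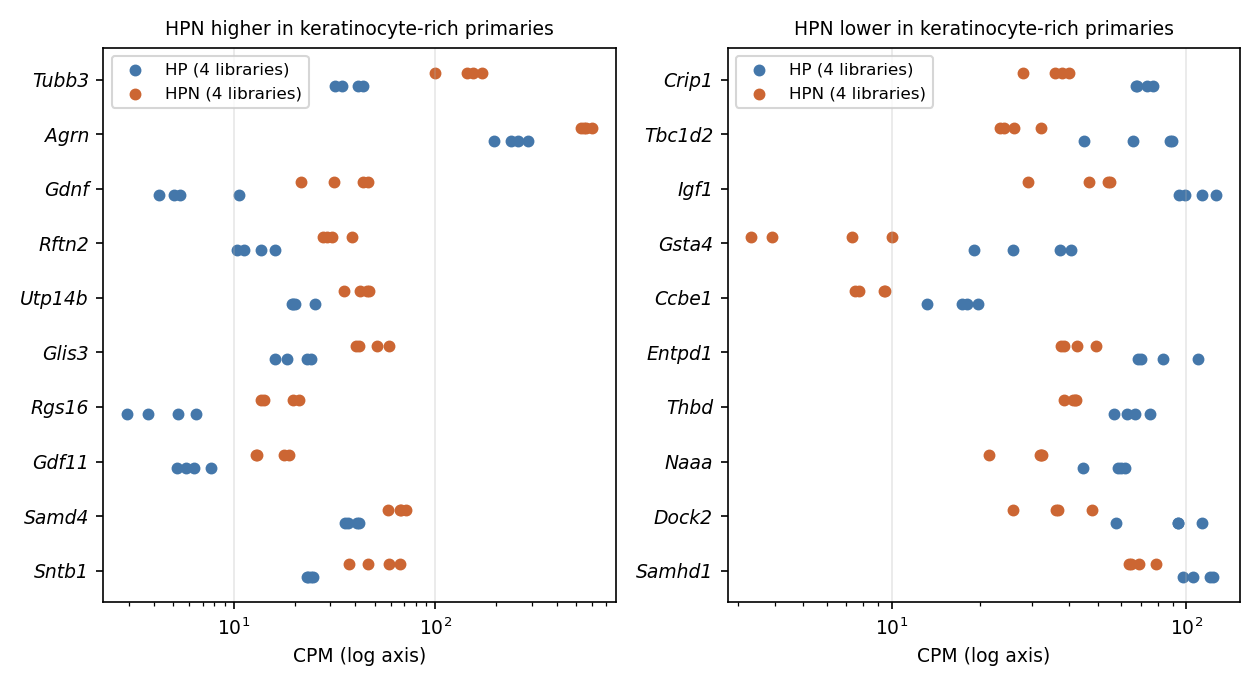
CPM on a log axis of the 10 genes with the smallest p in each direction, 1 point per library, HP in blue and HPN in orange. For all 20 genes the 4 HPN points lie to one side of the 4 HP points; the largest log2 difference in the left panel is that of Gdnf (2.51), and in the right panel that of Gsta4 (-2.32).

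In the lower direction Crip1, a small LIM domain protein, had the smallest p: 77.4, 67.6, 68.0 and 73.8 CPM in HP primaries 1, 3, 4 and 6 and 37.7, 28.0, 40.03 and 36.0 CPM in HPN primaries 1, 3, 4 and 6. The log2 difference was -1.02 (SE 0.15; edgeR adjusted p = 0.334). Gsta4, a glutathione transferase that clears products of lipid peroxidation, had the largest difference of the 10, at 19.0, 25.7, 40.6 and 37.4 CPM in HP and 10.04, 7.31, 3.32 and 3.90 CPM in HPN libraries (log2 -2.32, SE 0.41). Igf1, the insulin-like growth factor made by stromal and immune cells of skin, was at 113, 127, 94.6 and 99.1 CPM in HP and at 55.0, 29.0, 46.6 and 54.3 CPM in HPN libraries (log2 -1.23, SE 0.22). No HPN library reached the lowest HP library for any of the 3.

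Dock2, an activator of Rac found in leukocytes, ranged from 57.6 to 113 CPM in HP and from 25.8 to 48.0 CPM in HPN libraries (log2 -1.29). Tbc1d2, a GTPase-activating protein for Rab7 family proteins that keratinocytes also express, ranged from 44.8 to 89.3 and from 23.4 to 32.1 CPM (-1.45). Entpd1, which hydrolyses extracellular ATP, was at 68.5 to 110.1 and at 37.6 to 49.3 CPM (-0.98). Samhd1, which degrades deoxynucleoside triphosphates, was at 97.4 to 124 and at 63.8 to 79.2 CPM (-0.69), and Thbd, the thrombin receptor thrombomodulin, at 57.0 to 75.3 and at 38.3 to 42.2 CPM (-0.68). All 3 kept a gap between the genotypes. The lysosomal amidase Naaa was at 44.6 to 62.1 and at 21.5 to 32.3 CPM (-0.94), and Ccbe1, a factor of lymphatic vessel growth, at 13.2 to 19.6 and at 7.51 to 9.46 CPM (-0.998). The edgeR adjusted p of the 10 ran from 0.334 to 0.464. DESeq2 called all 20 genes of both directions, with adjusted p from 2.3e-11 to 0.00422. In 420 refits (20 genes, 21 alternatives each) the direction was the same in 420. The 20 genes were picked by their p in these same libraries, so the DESeq2 calls and the kept directions are not separate support. With the keratinocyte mean as a covariate the differences stayed between 0.64 and 2.74 in size, and the lowest edgeR adjusted p of the 20 was 0.354.

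The keratinocyte-poor primaries gave a second comparison of the genotypes, 3 HPN against 3 HP, in libraries that the rich comparison did not use. The test of whether the genotype difference itself differed between rich and poor primaries (an interaction contrast in 1 edgeR fit of 14 libraries) called 1 of 18425 genes, 0.00543%, and 1851 genes (10%) had an unadjusted p under 0.05. The gene was Tubb3. Scaled over all 14 libraries, it stood at 39.8, 31.5, 33.9 and 42.6 CPM in the rich HP primaries 1, 3, 4 and 6 and at 95.6, 146, 167 and 141 CPM in the rich HPN primaries 1, 3, 4 and 6. In the poor primaries it was at 305, 229.6 and 508 CPM in HP 5, 7 and 9, and at 116, 133 and 128 CPM in HPN 2, 5 and 7. HPN libraries were therefore near the same level in both kinds of primary, while HP libraries were the lowest of all in the rich and the highest of all in the poor primaries. The genotype difference was 1.87 in the rich and -1.51 in the poor set, and their difference was 3.38 (SE 0.36; edgeR adjusted p = 0.00734). Tubb3 was the only gene called in the main fit and in each of 11 alternatives, which left its difference between 3.26 and 3.51.

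The opposite sign in the poor primaries was not limited to Tubb3 among the genes described, although no other passed the interaction test. None of the 10 genes higher in HPN had a positive difference in the poor primaries (0 of 10), and 2 of the 10 lower genes, Igf1 and Thbd, had a negative one. Some of these poor differences were smaller than their SE: Samd4 -0.02 (SE 0.21), Sntb1 -0.08 (SE 0.27), Rgs16 -0.14 (SE 0.48), Samhd1 0.02 (SE 0.18) and Entpd1 0.14 (SE 0.25). Gdnf differed by 2.51 in the rich and by -1.88 (SE 0.76) in the poor primaries, Agrn by 1.19 and -0.84 (SE 0.25), and Gdf11 by 1.32 and -1.08 (SE 0.40). Gsta4 differed by -2.32 and 3.31 (SE 0.87), Tbc1d2 by -1.45 and 3.19 (SE 0.76), and Crip1 by -1.02 and 0.88 (SE 0.26). In the poor HPN primaries 2, 5 and 7, scaled over all 14 libraries, Tbc1d2 was uneven, at 5.31, 13.5 and 89.9 CPM. Gsta4 was low there, at 3.41, 0.246 and 2.18 CPM, against 0.422, 0.086 and 0.112 CPM in HP 5, 7 and 9. Gdnf overlapped, at 61.7, 21.0 and 182 CPM in those HP and 41.1, 27.8 and 4.89 CPM in those HPN libraries. The interaction adjusted p (edgeR) was 0.199 for Agrn, Crip1, Gsta4 and Rftn2. Igf1, by contrast, was lower in HPN by 1.23 and 0.91 on the log2 scale in rich and poor primaries. Over all 17329 genes, 47.5% had the same sign in both sets, and among the 666 genes whose rich libraries did not overlap 32.6% did. The median difference of the 17 keratinocyte genes was -1.16 in the rich and 1.09 in the poor primaries. The poor libraries were low and overlapped, with a mean log2 CPM of -0.995 to 0.47 in HP and of -2.52, 1.33 and 1.69 in HPN. The part of keratinocyte content in these opposite signs was not tested.

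**Figure D4:**
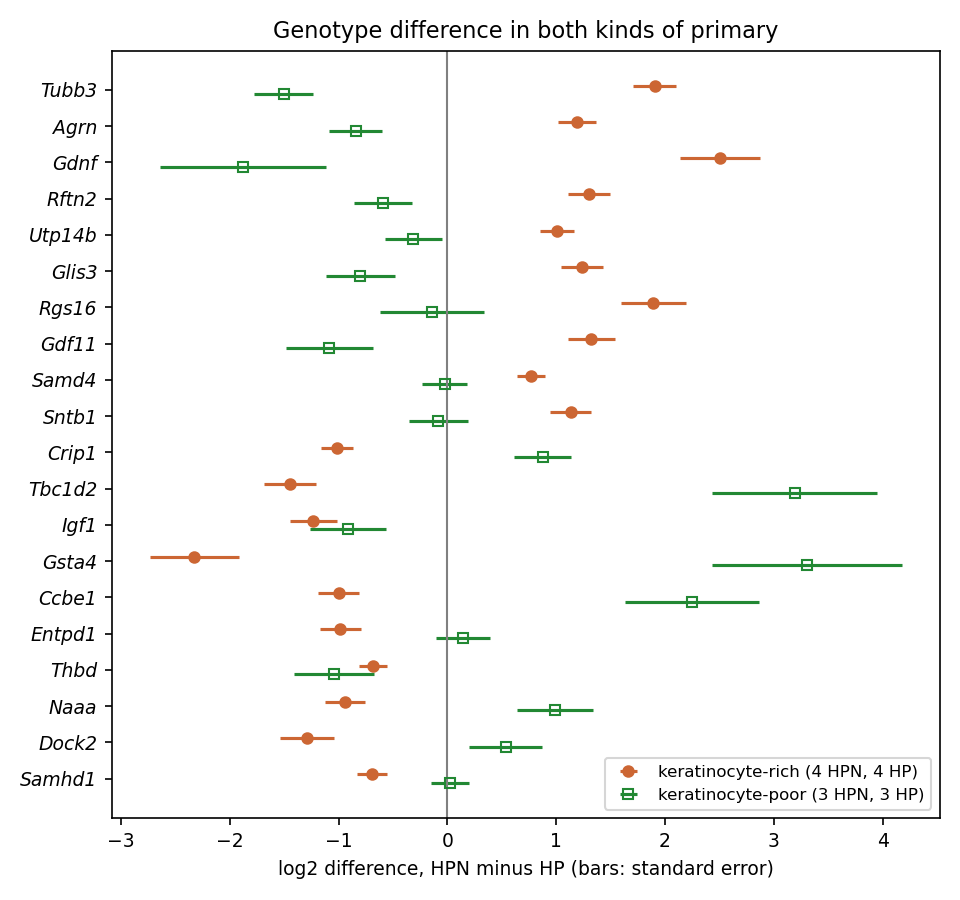
Log2 difference, HPN minus HP, of the 20 genes of the plot of CPM by library (y axis), with its standard error, in the 8 keratinocyte-rich (circles) and the 6 keratinocyte-poor primaries (squares). All 10 upper genes have squares at or to the left of 0, and only Igf1 and Thbd of the lower 10 have both symbols to the left.

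Genes of the pigment cell lineage came next. Of 18 pigmentation genes 14 were higher in HPN, with a median log2 difference of 0.32 against 0.01 over all genes tested; 0 passed. Tyr, the first enzyme of melanin synthesis, was at 672, 455, 568 and 466 CPM in HP primaries 1, 3, 4 and 6 and at 479.8, 916, 1314 and 1539 CPM in HPN primaries 1, 3, 4 and 6. HPN primary 1 lay within the HP range and the other HPN libraries above it (log2 difference 0.98, SE 0.35; edgeR adjusted p = 0.563). Dct, which acts later in the same pathway, was at 3279 to 9039 CPM in HP and 2969 to 16863 CPM in HPN libraries (1.17). Of 11 melanocyte transcription factors 8 were higher (median 0.27), among them Sox10 at 132 to 281 and 204 to 622 CPM (0.90) and Mitf at 206 to 505 and 184 to 647 CPM (0.50). Mc1r, the melanocortin receptor and the gene next to Tubb3, overlapped between the genotypes, at 112 to 378 and 116 to 392 CPM (0.51). The pigmentation median was 0.94 without HP primary 3, 0.64 without HPN primary 1 and -0.83 with the keratinocyte mean as a covariate.

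The neural crest and dedifferentiation list, genes of the embryonic precursor that melanoma cells can re-express, was split, with 6 of 13 higher and a median of -0.15. Nes, an intermediate filament of progenitor cells, was at 19.1, 9.27, 9.03 and 11.7 CPM in HP and at 63.3, 40.3, 38.4 and 18.6 CPM in HPN libraries (log2 difference 1.71, SE 0.39; edgeR adjusted p = 0.464). Its groups touched only where HPN primary 6 met HP primary 1. L1cam, a neural adhesion molecule, was at 124 to 159 and 197 to 327 CPM (0.83), without overlap (over all genes, 1.9% were apart with HPN higher). Ngfr, the low-affinity neurotrophin receptor, was at 87.7, 8.39, 29.9 and 16.8 CPM in HP and 221, 146, 140.2 and 76.9 CPM in HPN libraries (2.03, SE 0.69), and differed by -3.58 (SE 0.91) in the poor primaries. A further 3 genes are outside this list and do not enter its counts or median. They were chosen after their values were seen because their interaction p was among the smallest. Foxd3, a transcription factor of the neural crest, was at 10.4 to 25.2 and 47.0 to 95.7 CPM (1.88). Mcam, an adhesion molecule of melanoma and vessels, was at 36.3 to 92.2 and 122 to 245 CPM (1.79). Cdh19, a cadherin of Schwann cell precursors, was at 19.0 to 81.6 and 136 to 238 CPM (1.97). None of the 3 passed (edgeR adjusted p = 0.407 for Foxd3 and 0.464 for the others), and each had a negative difference in the poor primaries, from -0.73 to -1.16. That sign is not a further result, since choosing genes by a small interaction p favours opposite signs in the 2 sets. The list also held 2 genes lower at an unadjusted p under 0.05. Among them Nrg1, a ligand of Erbb receptors chosen after its values were seen, was at 3.53 to 6.36 and 1.03 to 4.80 CPM (-1.13), with overlap. Over all genes 3.89% were higher and 4.5% lower at that p. Markers of mature Schwann cells ran lower, with 8 of 10 below 0 (median -0.54) and Mbp, a myelin protein, at 39.8 to 52.2 and 16.0 to 39.4 CPM.

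Among signalling genes, the MAPK output list, which reads the activity of the Ras to Erk cascade, had 9 of 16 genes higher and a median of 0.39; 3 of the 16 had an unadjusted p under 0.05, all higher, against 3.89% of all genes. All 3 were Sprouty genes, feedback inhibitors of that cascade. Spry2 was at 32.6, 34.1, 23.9 and 29.6 CPM in HP primaries 1, 3, 4 and 6 and at 47.3, 67.5, 65.1 and 67.2 CPM in HPN primaries 1, 3, 4 and 6, without overlap (log2 difference 1.04, SE 0.17; edgeR adjusted p = 0.334). Spry1 was at 21.1 to 48.8 and 33.7 to 79.1 CPM (0.78), and Spry4 at 7.66 to 14.5 and 10.7 to 45.3 CPM (1.06), both with overlap. Met, the receptor of hepatocyte growth factor, was at 717 to 1450 and 459 to 1410 CPM (-0.32). The immediate early genes were split, 6 of 16 higher: Fosb was lower, at 6.55 to 14.1 in HP and 1.99 to 5.53 CPM in HPN libraries (-1.61), and its partner in the AP-1 factor, Jun, higher, at 126 to 179 and 192 to 275 CPM (0.68), each without overlap. Over all genes 1.9% were apart with HPN higher and 1.94% with HPN lower, the shares to set beside each such gene in this paragraph. Adamts1, a protease of the matrix, was at 96.3 to 128 and 149 to 521 CPM (1.44) in a list of 15 invasion proteases whose median was 0.02.

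Of 26 oxidative phosphorylation subunits 25 were higher in HPN, with a median of 0.34, and 7 had an unadjusted p under 0.05, all higher, against 3.89% of all genes, while 0 passed adjustment. Its mean log2 CPM was 6.11, 6.30, 5.97 and 6.28 in HP primaries 1, 3, 4 and 6 and 6.20, 6.54, 6.59 and 6.59 in HPN primaries 1, 3, 4 and 6. HPN primary 1 lay within the HP range and the other HPN libraries above it. Atp5o, a subunit of ATP synthase, was the 1 member without overlap, at 56.3 to 76.0 and 80.3 to 101 CPM (log2 difference 0.44). Over all genes 1.9% were apart with HPN higher, the share to set beside each such gene in this paragraph. The median kept its sign in all 18 alternatives, between 0.26 and 0.50, the former with the keratinocyte mean as a covariate. The coenzyme Q list had 9 of 11 genes higher (median 0.26): Coq2 was at 27.9 to 32.2 and 32.7 to 41.5 CPM (0.37), without overlap, and Coq8a at 39.5 to 50.7 and 34.4 to 122 CPM (0.72). Ribosomal protein genes were higher in 26 of 31 (median 0.14), and DNA replication and mitosis genes in 18 of 20 (median 0.25), among them Mcm6 of the replicative helicase at 28.3 to 48.8 and 44.4 to 91.4 CPM (0.56). The mitosis list's median was 0.07 without HP primary 4, 0.55 without HP primary 3, and 0.72 without HP primaries 3 and 6. The 20 genes of nucleotide synthesis and salvage, the pathway of the targeted kinases, were evenly split, 10 higher and 10 lower with a median of 0.00. Of these Dtymk, the thymidylate kinase, did not overlap, at 14.98 to 17.6 and 19.7 to 32.0 CPM (0.58). Of 20 p53 targets 13 were lower (median -0.19), and the median was -0.03 without HP primary 3 and -0.01 without HP primaries 3 and 6. Trp53inp1 (-0.56) and Gdf15 (-1.16) were among the 13, both with overlap between the genotypes.

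Immune and stromal marker lists lay mostly below 0. Macrophage genes were lower in 10 of 12 (median -0.45), 3 of them without overlap, against 1.94% of all genes. Csf1r, the receptor that macrophages need to survive, was at 260, 159, 223 and 129 CPM in HP primaries 1, 3, 4 and 6 and at 94.1, 122, 127 and 95.2 CPM in HPN primaries 1, 3, 4 and 6 (log2 difference -0.81, SE 0.24; edgeR adjusted p = 0.527). Mertk, a receptor for uptake of dead cells, was at 66.4 to 298 and 43.0 to 61.8 CPM (-1.47), and Spic, a transcription factor of red pulp macrophages, at 0.727 to 2.70 and 0.137 to 0.470 CPM (-2.44). Spic was near the floor, with only 13, 3, 10 and 9 counts in HPN primaries 1, 3, 4 and 6. The summed CPM of all 13 macrophage list genes, tested or not, nevertheless overlapped, at 1529 to 3823 in HP and 1610 to 2895 in HPN libraries. T cell genes were lower in 15 of 16 (median -0.73; Cd4 at 8.39 to 32.6 and 6.81 to 10.98 CPM), B cell genes in 7 of 7 (-0.93) and dendritic and Langerhans genes in 9 of 9 (-0.96). Mast cell genes were lower in 7 of 7 (median -2.08), and 4 had an unadjusted p under 0.05, against 4.5% of all genes lower at that p. Cpa3, the mast cell carboxypeptidase, was at 4.85, 2.91, 36.5 and 41.7 CPM in HP and 8.52, 0.913, 3.08 and 4.26 CPM in HPN libraries, so HP primaries 4 and 6 were high and the other 2 HP libraries lay among the HPN ones.

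MHC class II genes were lower in 9 of 9 in the rich primaries (median -0.57), and their median was 1.36 in the poor primaries; 8 of the 9 had an unadjusted interaction p under 0.05, against 10% of all genes, and 0 passed adjustment. With the keratinocyte mean as a covariate the medians of MHC class II, T cell and dendritic and Langerhans genes were 0.00, 0.03 and -0.17. The macrophage and mast cell medians stayed below 0 in all 18 alternatives, this one among them, at -0.66 to -0.35 and -2.485 to -1.37. The B cell median was -0.20 without HP primaries 3 and 6. The interferon response list had 16 of 20 genes higher (median 0.22), and a median of 0.73 without HP primary 3 and of -0.02 without HPN primary 1, which had the highest Cxcl9 of the 8 libraries, at 9.86 CPM against 0.629 to 3.52 in the other 7. Fibroblast and matrix genes were lower in 12 of 15 (median -0.54, and -0.07 without HP primary 6). Dcn, the proteoglycan decorin, was at 160 to 490 and 93.6 to 209 CPM (-1.04), whereas Fn1, fibronectin, was at 360 to 927 and 782 to 3529 CPM (1.61). Fn1 differed by -2.11 (SE 0.62) in the poor primaries. Endothelial genes were lower in 10 of 12 (median -0.25), including the angiopoietin receptor gene Tek at 11.4 to 16.4 and 7.63 to 11.3 CPM (-0.67). At an unadjusted p under 0.05 (edgeR), 1 endothelial gene was lower and 1 was higher. The mean log2 CPM of that list overlapped, at 4.75 to 5.26 in HP and 4.22 to 5.23 in HPN libraries.

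Of the other skin lists, 2 turned on 1 library each and 1 was bimodal. Red blood cell genes had a median of -2.34, and 0.23 without HP primary 3, in which Hba-a1 was at 309.9 CPM against 4.06 to 33.0 in the other 7 libraries. Skeletal muscle genes were higher in 12 of 12 (median 1.07), and the median was -0.42 without HPN primary 1, in which Myh1, a fast muscle myosin, was at 742 CPM against 1.11 to 166 elsewhere. Hair follicle genes were higher in 21 of 21 (median 0.97), yet within each genotype 2 libraries were high and 2 low: Krt83, a hair keratin, was at 21.0, 0.940, 0.559 and 68.5 CPM in HP primaries 1, 3, 4 and 6 and 133, 0.320, 259 and 0.154 CPM in HPN primaries 1, 3, 4 and 6.

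Epidermal genes chose the libraries, so their genotype difference is given as a description and was not tested. All 17 keratinocyte genes (median -1.16) and all 16 cornified envelope genes (median -1.43) were lower in HPN. Krt1 and Krt10, the paired keratins of the upper epidermis, were at 631 to 3426 and 929 to 3076 CPM in HP libraries and at 176 to 592 and 119 to 886 CPM in HPN libraries. Hrnr, a protein of the cornified layer, was at 136 to 370.3 and 22.4 to 99.4 CPM, and Alox12b, the lipoxygenase of the skin barrier, at 11.1 to 39.5 and 2.41 to 10.9 CPM. These are the 2 genes of each list without overlap between the genotypes; the other 15 keratinocyte and 14 cornified envelope genes overlapped, and over all genes 1.94% were apart with HPN lower. Cdh1, the E-cadherin that keratinocytes and melanocytes both use, was at 160.4 to 728 and 69.6 to 363 CPM, and Cdh2, the N-cadherin of mesenchymal cells, at 26.1 to 49.5 and 31.0 to 71.6 CPM. These epidermal levels moved with genotype beside each result above, and their part in those results was not tested. The fits with the keratinocyte mean as a covariate do not separate the 2, since that mean chose the libraries and differs with genotype.

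**Figure D5:**
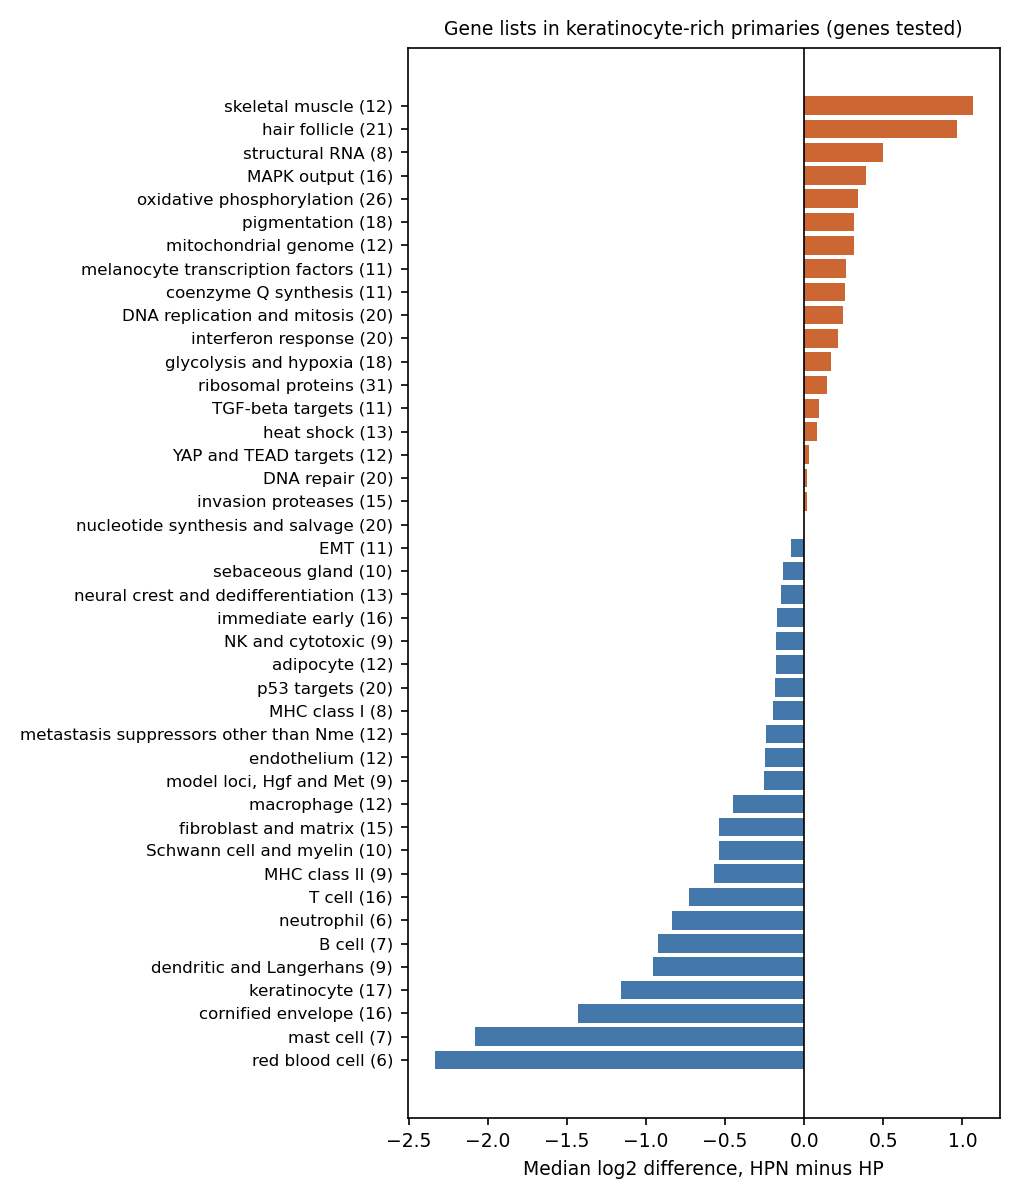
Median log2 difference, HPN minus HP, of each gene list over its tested genes (number in brackets) in the 8 keratinocyte-rich primaries; orange bars are above 0 and blue bars below. Skeletal muscle (1.07) and red blood cell (-2.34) lie at the ends, and both change sign without 1 library.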

How the data were processed

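Total RNA of the tumours was made into strand-specific libraries. The submitters' processing notes name bcl2fastq 1.8.4, STAR 2.5.3a and the build mm9. Each library has 1 deposited file of raw counts, whole numbers for 37620 Ensembl genes. How strand was treated in counting, and the annotation release, is not given in the sources used here. Entries naming no gene entered neither library sizes nor tests. Symbols came by identifier from GENCODE vM21 (87.4% matched; 2.03% of the counts had no symbol). That build is GRCm38, so no coordinates are given.

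The members and all gene lists were chosen with earlier results of these data known. The 8 libraries were fitted with edgeR 4.0.16 in R 4.3.3 (filterByExpr, TMM, robust glmQLFit, glmQLFTest), with Benjamini-Hochberg adjustment over 17329 genes and a threshold of 0.05. The interaction used all 14 primaries. Fold differences are log2, HPN minus HP. CPM values are TMM-scaled. Named genes were Nme1, Nme2, the 10 smallest p in each direction with a mean of at least 5 CPM (none passed; segments of antigen receptors, predicted genes, pseudogenes and structural RNA left out) and up to 4 members of each list, smallest p first; Mc1r, Foxd3, Mcam, Cdh19, Nrg1, Pcbp4 and Psd4 were added after their values were seen. Lists have counts and medians only. Of 609 list genes 602 had an identifier. Alternatives were DESeq2 1.42.0, its size factors, limma 3.58.1 voom, other filters, covariates, the replicate block and each library left out; structural RNA left out, pigmentation as a covariate and the scalings of the non-overlap counts were added after seeing the data. The fit was tested on simulated counts.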

Additional observations from a re-analysis of the deposited data

Results flagged for a closer look

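Tubb3 was flagged because its genotype effect differed between keratinocyte-rich and keratinocyte-poor primaries in a test of the difference itself, by 3.38 on the log2 scale (edgeR adjusted p = 0.00734).

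For 71 genes, nearly all of them named in the text, each genotype's 4 libraries were examined for 1 library far from the others. Of 142 groups 11 had one. The cutoff gives about 1 in 20 for independent, normally distributed values. These genes share their libraries and many were picked from them, so the share to expect here is not known. In HPN primary 1 these were Spry2 (47.3 CPM), Hrnr (99.4 CPM), Cd4 (10.98 CPM) and Myh1 (742 CPM). In HP primary 3 they were Utp14b (25.3 CPM) and Hba-a1 (309.9 CPM), and in HP primary 1 Fosb (6.55 CPM) and Dtymk (14.98 CPM). HPN primary 3 was far from the rest for Naaa (21.5 CPM), HP primary 6 for H2-Oa (0.955 CPM) and HP primary 4 for Spry4 (7.66 CPM).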

How the results depend on the processing

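The count of genes called for genotype was 0 in the main fit and in 17 of 21 alternatives. It was 196 with DESeq2, 1 with limma voom, 1 in the fit of all 14 primaries and 0 to 3 when 1 library was left out, with 3 without HPN primary 1; the cause was not tested. At an unadjusted p under 0.05 the count ran from 891 to 3445. The direction of Nme1 turned without HP primaries 3 and 6 (0.016; the cause was not tested), and was -0.61 with the keratinocyte mean as a covariate. For Nme2 the exact permutation p was under 0.05 only before adjustment over Nme1, Nme2 and their sum (lowest 0.0286). This was so with total count scaling and without HPN primary 4. The difference in that test is of mean log2(CPM + 0.5), a scale on which Nme2 was -0.41 in all 8 libraries. On it Nme2 was -0.39 with total count scaling, and -0.54 to -0.32 with 1 library left out. The edgeR difference of Nme2 stayed between -1.67 and -0.80 over its alternatives. Genes with all HPN libraries below all HP libraries numbered 124 with total count scaling. Tubb3 was the 1 interaction call in all 11 alternatives. The direction of 20 of 44 list medians was the same under every alternative tried. With title number as a replicate block, 0 genes were called and 1008 had an unadjusted p under 0.05. The deviations of same-numbered libraries had correlations of -0.16, 0.32, -0.32 and -0.51. No pairing by number was evident, though so few values cannot exclude one. For Nme2, the filter of over 1 CPM in 4 libraries left no value. With 4 libraries a group, differences near 2-fold were mostly not detectable by the edgeR fit on simulated counts.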
